A study of Mus musculus with 16 samples.

Results

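The genes described here are 8 Toll-like receptor genes (Tlr1, Tlr2, Tlr3, Tlr4, Tlr6, Tlr7, Tlr8 and Tlr9), the adaptor gene Myd88 and Irak3, which encodes IRAK-M, in tumour and blood samples of mice that carried Hepa1-6 tumours. Hepa1-6 is an established mouse hepatoma cell line. The genes were taken by name through the RefSeq accession of each array probe, without regard to their values. All 10 were found, with 13 probes in all, among 12298 genes that passed the signal filter. The study comprised 16 Agilent 2-colour arrays. On 8 arrays the Cy5 channel held RNA of a density-gradient fraction of the tumours that was enriched in infiltrating inflammatory cells (TIC), and on 8 arrays it held RNA of blood from the tumour-bearing mice. The Cy3 channel of all 16 arrays held blood RNA of untreated mice, which served as the reference. No dyes were swapped, so a dye bias of a probe stays in its ratio to the reference.

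Per the labels, Hepa1-6 cells were placed under the skin, and blood and tumours were taken 10 days later. All mice, including the untreated ones, are labelled female C57Bl/6. The treatment protocol calls the tumour-bearing mice athymic, and the labels do not say so of the untreated mice. Athymic mice have few mature T cells, while their B cells, natural killer cells and myeloid cells develop. TIC RNA and blood RNA were extracted with different kits. TIC and blood samples carry the same 8 sample numbers (889, 890, 891, 893, 894, 896, 897 and 898). The labels do not say whether each number is a separate mouse, so the p-values measure the spread between these samples, which may be technical.

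Toll-like receptors sense microbial molecules and molecules released by damaged cells. TLR1, TLR2, TLR4 and TLR6 act mainly at the cell surface, where TLR2 pairs with TLR1 or TLR6 on lipopeptides and TLR4 responds to lipopolysaccharide. TLR3, TLR7, TLR8 and TLR9 act in endosomes and bind nucleic acids. MyD88 carries the signal of these receptors other than TLR3 to IRAK kinases, NF-kB and interferon regulatory factors, and IRAK-M restrains it. In mouse blood and tumours these receptors are found on myeloid cells, several of them, TLR7 and TLR9 included, also on B cells, and TLR7 and TLR9 on plasmacytoid dendritic cells.

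The promoters of 4 of these genes are printed. Tlr9 and Tlr1 had the largest loess changes against the reference in TIC, Tlr9 and Myd88 had all TIC arrays and all blood arrays on opposite sides of the reference with loess, and Tlr2 encodes the partner of TLR1. Each line gives the 250 bases before a transcript start, 5′ to 3′ on the gene's strand, from RefSeq on build GRCm38.p6. Capitals mark matches on either strand to 4 searched motifs, an NF-kB-like motif (GGG, 5 bases of any kind, CC), an interferon-response-like motif (GAAA, 2 bases of any kind, GAAA), the PU.1 core GAGGAA and the AP-1 motif TGANTCA.
Tlr9 (chr9:106222348-106222597, plus strand): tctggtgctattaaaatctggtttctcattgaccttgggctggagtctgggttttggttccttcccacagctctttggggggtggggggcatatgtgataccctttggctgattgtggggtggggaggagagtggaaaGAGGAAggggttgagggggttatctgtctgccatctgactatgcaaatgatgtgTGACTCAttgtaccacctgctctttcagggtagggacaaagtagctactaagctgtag
Myd88 (chr9:119340019-119340268, minus strand): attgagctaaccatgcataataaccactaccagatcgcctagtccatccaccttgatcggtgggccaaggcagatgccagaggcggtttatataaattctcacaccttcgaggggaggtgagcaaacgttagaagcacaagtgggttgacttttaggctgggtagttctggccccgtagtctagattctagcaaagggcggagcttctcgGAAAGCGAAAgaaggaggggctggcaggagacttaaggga
Tlr1 (chr5:64933559-64933808, minus strand): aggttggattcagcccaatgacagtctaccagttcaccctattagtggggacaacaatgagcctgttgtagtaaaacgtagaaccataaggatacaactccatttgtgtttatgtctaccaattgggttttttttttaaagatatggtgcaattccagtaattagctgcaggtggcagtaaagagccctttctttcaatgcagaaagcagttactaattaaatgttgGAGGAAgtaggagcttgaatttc
Tlr2 (chr3:83841609-83841858, minus strand): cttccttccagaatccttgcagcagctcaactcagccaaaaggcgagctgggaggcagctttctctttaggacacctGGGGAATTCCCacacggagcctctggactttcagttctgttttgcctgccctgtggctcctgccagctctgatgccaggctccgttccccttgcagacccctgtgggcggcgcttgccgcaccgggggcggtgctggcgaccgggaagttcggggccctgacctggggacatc

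In the window of Tlr9, GAGGAA lay 112 to 107 bases and TGACTCA 58 to 52 bases before the start. Myd88 held GAAAGCGAAA 40 to 31 bases before its start. The printed window of Tlr1 held GAGGAA 23 to 18 bases before the start, while the window of its other listed start held no match, and that of Tlr2 held 2 overlapping matches to the NF-kB-like motif between bases 173 and 163. The sequences are a description of the windows, not of bound sites. Of 32851 promoters of this length, 45.8% held the NF-kB-like and 2.98% the interferon-response-like motif, 23.3% held GAGGAA and 6.75% held TGANTCA. The table gave 11 promoters for 8 of the 10 genes, of which 4, 2, 3 and 1 held the motifs in that order; Tlr4 and Tlr7 were not in it.

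A probe counts as measured in a channel where the scanner program placed it well above background. In TIC (Cy5), Tlr1, Tlr2, Tlr4, Tlr6, Tlr7, Tlr9, Myd88 and Irak3 were well above background on 8 of 8 arrays, Tlr3 on 7 and Tlr8 on 5. In blood (Cy5), Tlr1, Tlr2, Tlr6, Tlr9 and Myd88 were well above background on 8 of 8 arrays, Tlr7 on 7, Tlr4 and Irak3 on 4, and Tlr3 and Tlr8 on 0. The reference (Cy3) was well above background for 8 genes on all 16 arrays and for Tlr3 and Tlr8 on 0. The arrays were unequally bright, which the raw signals below carry with them. Over all probes, 51.1% to 65.8% were well above background in Cy5 on TIC arrays and 24.8% to 36.3% on blood arrays. The 95th percentile of Cy5 signal was 3093 to 14494 scanner units on TIC arrays and 246 to 540 on blood arrays. Ratios correlated over all probes at 0.80 to 0.98 between TIC arrays, at 0.56 to 0.83 between blood arrays and at −0.30 to −0.07 between a TIC and a blood array. The labels state the dyes, so the direction was kept. Slides 3 and 4 held the TIC arrays and slides 1 and 2 the blood arrays, so slide and group cannot be told apart in the comparison of TIC with blood.

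TIC was first compared with the reference. Relative to blood of untreated mice, Tlr4 rose in TIC, and Tlr9 and Tlr1 fell with loess but stood at −0.06 and 0.14, neither called, after median centring. Among all tested genes, 19.4% were called in this comparison, 9.31% higher and 10.1% lower, and the 3 called among these 10 genes stand against that share. A call needed an adjusted p below 0.05 in limma (Benjamini-Hochberg, taken over every tested probe) and a change of at least 2-fold, which is 1 on the log2 scale. The p threshold alone was passed by 9 of the 10 genes, 4 higher and 5 lower, and by 76.4% of all genes. Tlr3, which passed the signal filter through Cy5 of TIC alone, is among the 4 higher genes. The median log2 ratio was −0.06 over the 10 genes and 0.05 over all genes. Fold changes are ratios to 1 reference RNA and leave out the spread between untreated mice. In such bulk samples, fewer cells of a type and less RNA per cell cannot be told apart.

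**Figure D1:**
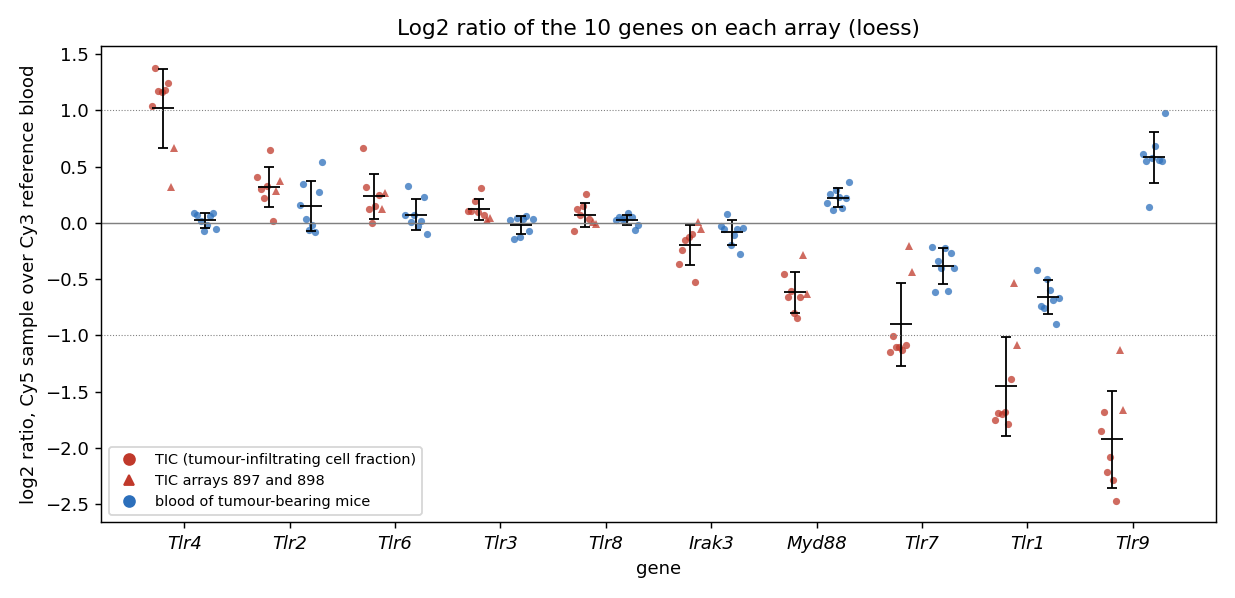
Log2 ratio of Cy5 sample over Cy3 reference after loess for the 10 genes (x axis) on each array; TIC points are red, with triangles for arrays 897 and 898, and blood points are blue. Bars give the mean ± SD of 8 arrays, dotted lines mark 2-fold. Tlr4 in TIC (0.32 to 1.38) lies above all its blood points, and Tlr9 in TIC (−2.47 to −1.13) and Myd88 in TIC (−0.85 to −0.29) lie below all of theirs, which for Myd88 turns round after median centring.

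Tlr4, the receptor for lipopolysaccharide, had log2 ratios to the reference of 0.32, 1.17 and 1.38 (lowest, median and highest) on the TIC arrays. All 8 were above 0, and the 2 lowest, 0.32 and 0.66, were those of arrays 897 and 898. The mean was 1.02 ± 0.11 (SE, n = 8 arrays; limma adjusted p = 2.5e-05), a 2.03-fold rise that lies close to the 2-fold threshold. It was under that threshold, between 0.97 and 0.9996, without array 890, 891, 894 or 896, at 0.85 on slide 4 alone and at 0.77 with no background correction. Before normalisation, Tlr4 gave 334, 1102 and 2328 scanner units of Cy5 in TIC, against 35.3 to 50.8 units of Cy3 reference on the same arrays.

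Tlr2, the shared partner in lipopeptide sensing, had ratios of 0.02, 0.31 and 0.64 in TIC. Its mean of 0.32 ± 0.06 passed the p threshold but not 2-fold (limma adjusted p = 0.0012). Tlr6, which pairs with Tlr2, had a mean of 0.24 ± 0.07 (limma adjusted p = 0.011), with 7 of 8 arrays above 0 and 1 at −0.005. Neither gene was called with loess, whereas Tlr2 was called at 1.85 after median centring and at 1.22 after spike-in centring, and Tlr6 at 1.61 after median centring.

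Tlr1, the other partner of Tlr2, had ratios of −1.79, −1.69 and −0.53 in TIC, all 8 below 0. Its mean was −1.45 ± 0.14 (SE, n = 8; limma adjusted p = 8.8e-06), a 2.74-fold fall with loess that was 0.14 and not called after median centring. Array 897 held the smallest change, −0.53, and array 898 the next, −1.09. On the loess scale Tlr1 thus lay below the reference and its pairing partner Tlr2 above it, as was so after spike-in centring (−0.49 and 1.22) and in the authors' deposited ratios (−2.06 and 0.62), whereas both were above it after median centring.

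Among the endosomal receptors, Tlr9, the sensor of unmethylated CpG DNA, had ratios of −2.47, −1.97 and −1.13 in TIC. Array 897 held the smallest change, −1.13, and array 898 the next, −1.67. All 8 arrays were below the reference, at a mean of −1.92 ± 0.13 (SE, n = 8; limma adjusted p = 9.1e-07), a 3.79-fold fall. With median centring the mean was −0.06, and after spike-in centring −0.69, neither of them called. Relative to the median of all genes, Tlr9 was lower by either centring, at −1.26, against −1.97 with loess.

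Tlr7, the sensor of RNA rich in guanosine and uridine, had ratios of −1.15, −1.09 and −0.20 in TIC. Arrays 897 and 898 held the 2 smallest changes, −0.20 and −0.43. The mean of −0.90 ± 0.11 missed 2-fold (limma adjusted p = 8.0e-05) and passed it at −1.002 without array 897, at −1.09 on slide 3 alone, at −1.63 with a floor in place of normexp and at −1.59 in the authors' deposited ratios. With median centring it was 0.26.

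Tlr3, which senses viral RNA and signals through TICAM1, was not well above background in the reference or in blood, so that its change has only a bound. Tlr3 and Tlr8 passed the signal filter through Cy5 of TIC alone, so no p-value is given for their bounds. In Cy5 of TIC, Tlr3 was at least 1.08-fold higher than in the reference, from measured means of 6.66 in TIC and 6.54 in the reference on the log2 intensity scale. Its other tested probe gave the same bound of at least 1.08-fold. The bound was 1.07-fold after median centring and under 1 after spike-in centring. Tlr8, a sensor of RNA in human cells, was at least 1.04-fold higher in TIC, and under 1 by either centring.

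The adaptor gene Myd88 had ratios of −0.85, −0.65 and −0.29 in TIC, all 8 below the reference. Its mean was −0.62 ± 0.06 (SE, n = 8; limma adjusted p = 1.8e-05), a 1.54-fold difference under the 2-fold threshold. The value was of the opposite sign after median centring, 1.39, and after spike-in centring, 0.76. Irak3, the inhibitor of the IRAK kinases that MyD88 recruits, had ratios of −0.52, −0.14 and 0.01 and a mean of −0.19 ± 0.06 (limma adjusted p = 0.019). Its other tested probes gave −0.05 ± 0.04 and −0.06 ± 0.05, neither of which passed the p threshold. Irak3 stood at 0.80 after median centring and at 0.16 after spike-in centring.

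Blood was compared with the reference next. In blood of tumour-bearing mice, 0 of the 10 genes were called by limma, while 5 had an unadjusted p under 0.05 and 4 an adjusted p under 0.05, 2 of them higher and 2 lower. Of all genes, 0.748% were called, 0.504% higher and 0.244% lower, and 49.8% passed the p threshold alone. The median ratio was 0.02 over the 10 genes and −0.02 over all genes. The 2 genes that were higher than the reference, Tlr9 and Myd88, were lower than it in TIC on the same loess scale, and in blood both stood below 0 after median and spike-in centring. Both comparisons share the reference RNA.

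Tlr9 had ratios of 0.14, 0.57 and 0.98 in blood, all 8 above 0, with a mean of 0.58 ± 0.06 (limma adjusted p = 3.0e-06). Myd88 had ratios of 0.12, 0.23 and 0.37, also all above 0, with a mean of 0.23 ± 0.04 (limma adjusted p = 0.00024). With median centring the means were −0.04 for Tlr9 and −0.42 for Myd88, and after spike-in centring −0.02 and −0.40, so that neither direction held across scalings. These are 1.499-fold and 1.17-fold differences on the loess scale.

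Tlr1 had ratios of −0.90, −0.68 and −0.42 in blood, at a mean of −0.66 ± 0.05 (limma adjusted p = 7.4e-08), and Tlr7 had −0.61, −0.37 and −0.21, at a mean of −0.38 ± 0.05 (limma adjusted p = 1.7e-05). Every blood array lay below the reference for both genes. They kept this sign after median centring, at −1.27 and −0.79, after spike-in centring, at −1.24 and −0.76, and in the authors' deposited ratios, at −1.06 and −1.12. Tlr1 passed 2-fold under each of these 3 scalings, and Tlr7 in the deposited ratios.

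Tlr4 had ratios of −0.08, 0.04 and 0.09 in blood, at a mean of 0.02 ± 0.04 (95% interval −0.06 to 0.10; limma adjusted p = 0.68). Tlr2 averaged 0.15 ± 0.06 (limma adjusted p = 0.074), Tlr6 0.07 ± 0.05 (limma adjusted p = 0.25) and Irak3 −0.08 ± 0.04 (limma adjusted p = 0.13). Tlr4 and Irak3 were well above background in Cy5 on only 4 of the 8 blood arrays. Tlr3 and Tlr8 were not well above background in either channel of the blood arrays, and no fold is given for them.

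TIC and blood were then compared with each other. The difference of the loess ratios, TIC minus blood, removes the shared reference only where its signal is alike on both sets of arrays. Before normalisation the log2 Cy3 difference, TIC arrays over blood arrays, was 1.29 for Myd88 and −0.67 for Tlr9. Its median over all genes was 0.56. Tlr9 was the 1 gene of the 10 that was called. Among all genes 23.9% were called, 12.1% higher and 11.8% lower, so that 1 of 10 is a smaller share than that background. The p threshold alone was passed by 6 of the 10 genes and by 74.9% of all genes. Tlr3, which passed the signal filter through Cy5 of TIC alone, is among these 6. The median difference was −0.03 over the 10 genes and 0.08 over all genes.

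Tlr9 differed by −2.51 ± 0.16 (SE, 8 arrays each; limma adjusted p = 1.2e-10), a 5.68-fold fall in TIC relative to blood. Its highest TIC ratio, −1.13, lay below its lowest blood ratio, 0.14. Over all genes, 17.3% had TIC arrays entirely below blood arrays. The difference was −0.01 after median centring and −0.67 after spike-in centring, neither called. Relative to the median of all genes it was −2.59 with loess, −1.47 with either centring and −3.51 in the deposited ratios.

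Tlr4 differed by 0.999 ± 0.12 (SE, 8 arrays each; limma adjusted p = 7.3e-07), 0.001 short of the 2-fold threshold and therefore not called. Its lowest TIC ratio, 0.32, lay above its highest blood ratio, 0.09, as was the case for 24.8% of all genes. Tlr4 kept this sign under the other scalings, at 2.48 after median centring, 1.82 after spike-in centring and 2.11 in the deposited ratios, all of them past 2-fold. Relative to the median of all genes it was 0.92 with loess and 1.02 with either centring.

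Myd88 differed by −0.84 ± 0.07 (SE, 8 arrays each; limma adjusted p = 1.1e-08), and every TIC array lay below every blood array with loess. With loess 17.3% of all genes had TIC arrays entirely below blood arrays. The sign turned after median centring, 1.81, where every TIC array lay above every blood array, and after spike-in centring, 1.15. After median centring Tlr1, Tlr2, Tlr4, Tlr6, Tlr7 and Irak3 also had every TIC array above every blood array, and no share of all genes is given there. Relative to the median of all genes Myd88 was −0.92 with loess and 0.36 with either centring.

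Tlr1 differed by −0.79 ± 0.15 (limma adjusted p = 0.00015) and Tlr7 by −0.52 ± 0.13 (limma adjusted p = 0.0020), with overlapping arrays. Both turned sign after median centring, 1.41 and 1.05, and after spike-in centring, 0.75 and 0.39. With loess, the 6 TIC arrays other than 897 and 898 lay below every blood array for both genes. These 6 arrays were set apart after the data were seen, and no share of all genes is given for them. After median centring every TIC array lay above every blood array for both genes. Tlr2 differed by 0.17 ± 0.10 (limma adjusted p = 0.12), Tlr6 by 0.16 ± 0.09 (limma adjusted p = 0.099) and Irak3 by −0.11 ± 0.07 (limma adjusted p = 0.21). Tlr3 was at least 1.09-fold higher in TIC than in blood, with measured means of 6.66 in TIC and 6.47 in blood on the log2 Cy5 scale. Its second probe gave at least 1.06-fold, and the bound was 1.05-fold after median centring and under 1 after spike-in centring. Tlr8 was at least 1.001-fold higher, and under 1 by either centring.

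**Figure D2:**
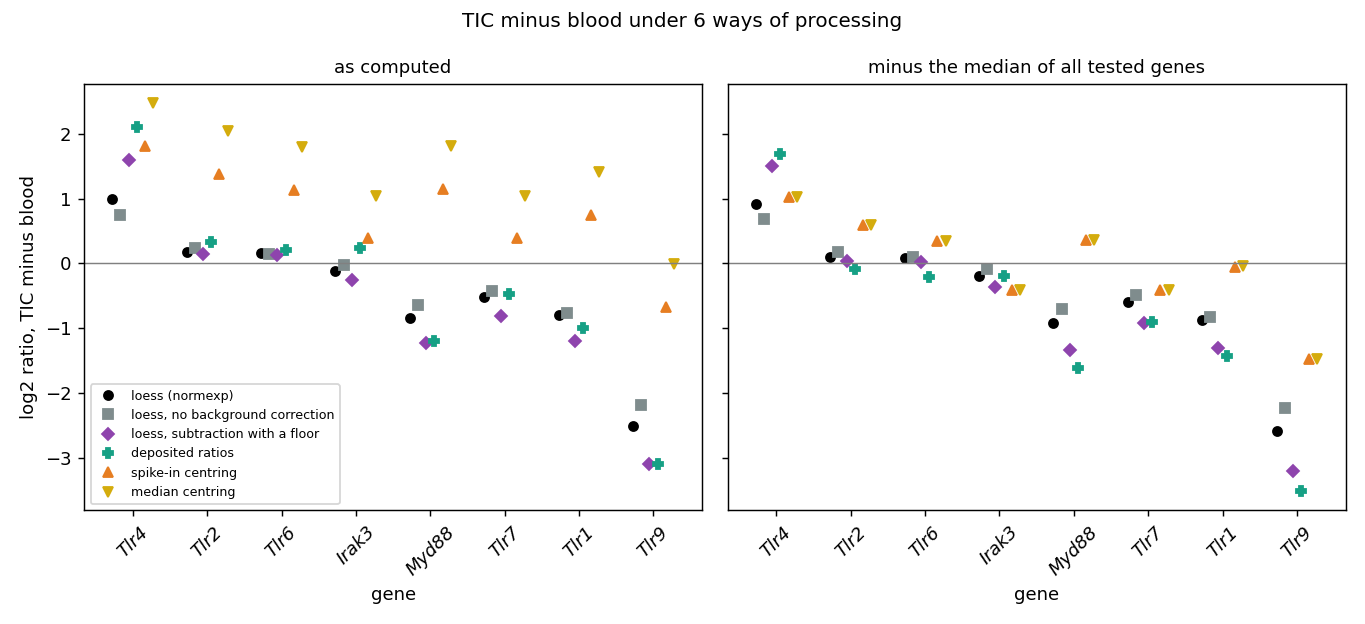
TIC minus blood on the log2 scale (y axis) for 8 genes under 6 ways of processing, as computed (left) and after the median of all tested genes is taken away (right). As computed, Myd88, Tlr7, Tlr1 and Irak3 are below 0 with loess and above 0 after median and spike-in centring. On the right Tlr4 stays above 0 and Tlr9 below 0 under all 6, of which median and spike-in centring coincide by arithmetic.

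Several of these signs depended on how the arrays were scaled. With median centring of each array, all tested genes had a median of 1.20 in TIC against the reference, −0.16 in blood against the reference and 1.46 in TIC minus blood. With centring on 10 spike-in probes these medians were 0.57, −0.14 and 0.80, and in the deposited ratios 0.17, −0.11 and 0.42. Median and spike-in centring each take a constant from all probes of an array, so relative to these medians they give the same values by arithmetic. In TIC minus blood these values were Tlr4 1.02, Tlr2 0.59, Myd88 0.36, Tlr6 0.34, Tlr1 −0.05, Tlr7 −0.41, Irak3 −0.41 and Tlr9 −1.47. A pair chosen after its values were seen, Tlr4 minus Tlr9 within an array, does not depend on centring. With loess it was 1.45 to 3.72 on TIC arrays and −1.04 to −0.12 on blood arrays, and with either centring 0.97 to 3.21 on TIC arrays and −0.63 to 0.68 on blood arrays. The groups did not overlap under any of the 6 ways of processing, of which median and spike-in centring are the same here by arithmetic. With loess Tlr4 was the highest and Tlr9 the lowest of the 10 genes in TIC, so the choice of this pair favoured such a gap. No share of other gene pairs is given, so the gap cannot be weighed against them.

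**Figure D3:**
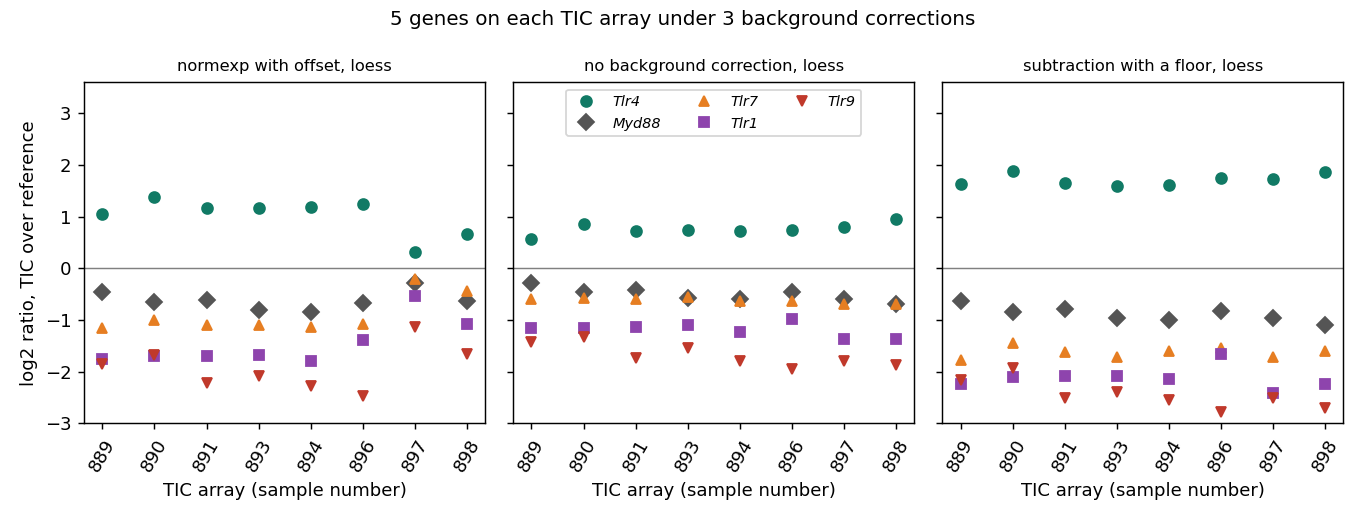
Log2 ratio of TIC over reference (y axis) for 5 genes on each of the 8 TIC arrays (x axis, sample number) under 3 background corrections followed by loess. With normexp, arrays 897 and 898 lie nearest to 0 for Tlr4, Tlr7, Tlr1 and Tlr9. With no correction they lie farthest from 0 for Tlr1 and Tlr7, and with a floor array 897 does so for Tlr1.

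With normexp and loess, arrays 897 and 898 stood apart from the other TIC arrays. The SD of the loess ratio over all tested probes was 0.63 and 0.72 on these arrays and 0.92 to 1.04 on the other 6. With no background correction it was 0.79 and 0.82, against 0.70 to 0.81, and with a floor 1.30 and 1.35, against 1.27 to 1.38. In the deposited ratios it was 1.87 and 1.92, against 1.71 to 1.93, and with median centring 1.12 and 1.01, against 1.06 to 1.51. With the floor, Tlr1 was −2.41 and −2.23 on these arrays, against −2.24 to −1.66 on the other 6, and with no background correction −1.38 and −1.36, against −1.23 to −0.97. Without both arrays, an alternative chosen after the data were seen, 4 of the 10 genes were called in TIC against the reference and 3 in TIC against blood, against 22.9% and 27.5% of all genes. The genes past 2-fold in TIC against blood were then Tlr9, Tlr4 at 1.17 ± 0.06 and Tlr1 at −1.01 ± 0.08.

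**Figure D4:**
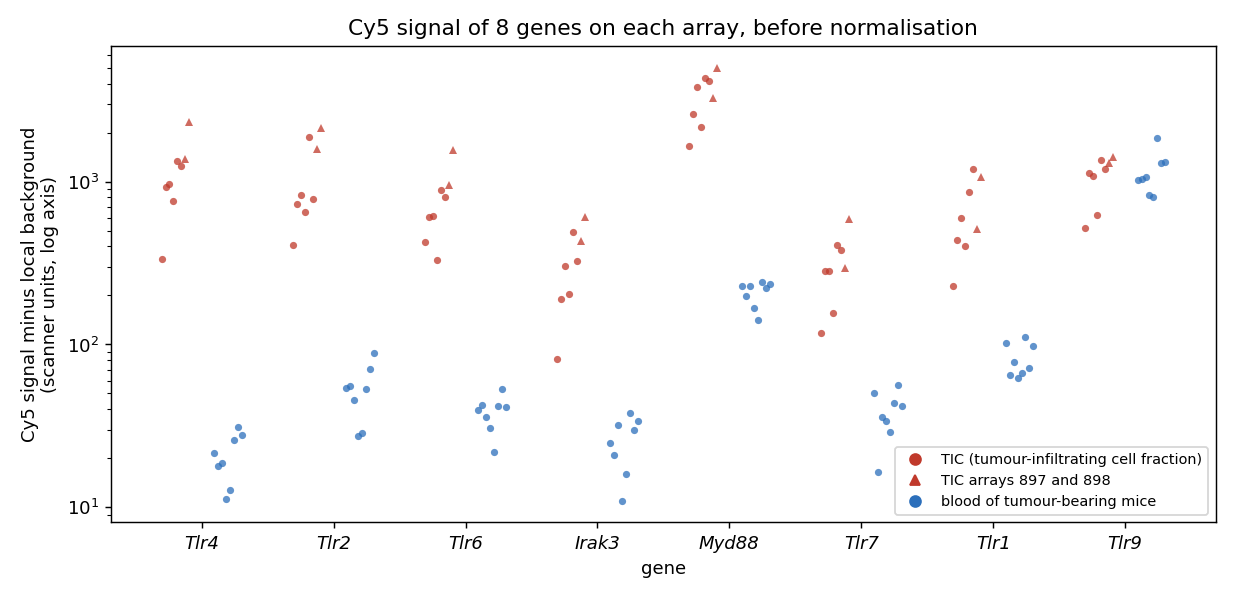
Cy5 signal minus local background in scanner units (log axis), before normalisation, for 8 genes on each TIC array (red, triangles for arrays 897 and 898) and each blood array (blue). Tlr9 overlaps between TIC (517 to 1412) and blood (804 to 1842), while the other 7 genes are brighter on every TIC array than on any blood array.

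Before any normalisation, Tlr9 gave 517, 1162 and 1412 units of Cy5 (lowest, median and highest) in TIC and 804, 1051 and 1842 in blood, and the groups overlapped. The other 7 genes measured in both groups were brighter on every TIC array than on any blood array, as were 80.5% of all genes measured in both groups and 75.3% of all tested genes. Myd88 gave 1665, 3534 and 5014 units in TIC and 141, 225 and 241 in blood. Tlr4 gave 334, 1102 and 2328 units in TIC and 11.3, 20.2 and 31.1 in blood. Tlr1 gave 230, 553 and 1188 units in TIC and 62.0, 75.0 and 111 in blood. Tlr7, Tlr2, Tlr6 and Irak3 followed this pattern, with TIC medians of 290, 807, 710 and 315 units and blood medians of 39.0, 53.7, 40.5 and 27.5 units. These raw signals also carry the brightness of the whole array. When the Cy5 channel was normalised alone, by loess and Aquantile, Tlr4 was 1.09 ± 0.05 higher and Tlr1 differed by −1.32 ± 0.09, and 3 of the 10 genes were called, against 33.2% of all genes. On this log2 Cy5 scale Myd88 was 8.93 to 9.46 in TIC and 9.33 to 9.68 in blood, so that the groups overlapped. Tlr9 was 7.43 to 8.03 in TIC and 11.18 to 11.77 in blood.

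**Figure D5:**
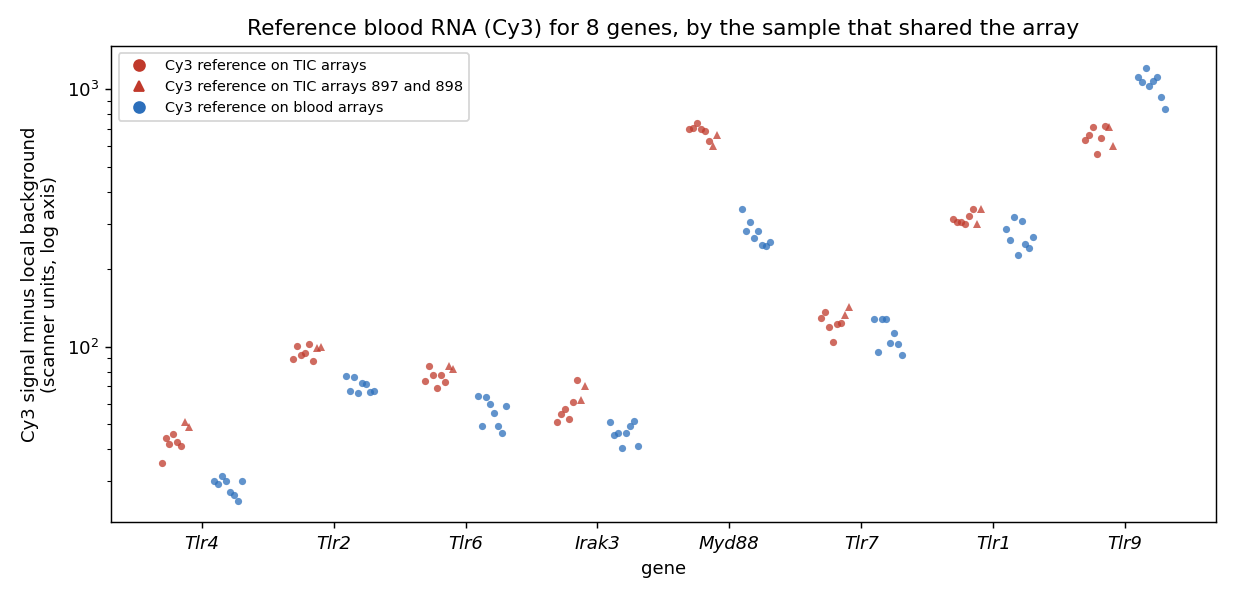
Cy3 signal of the reference blood RNA minus local background in scanner units (log axis) for 8 genes, on arrays shared with TIC (red, triangles for arrays 897 and 898) and with blood samples (blue). Myd88 is higher on the TIC arrays (599 to 737) than on the blood arrays (247 to 342), and Tlr9 lower (561 to 721 and 837 to 1214).

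The reference signal itself differed with the sample that shared the array. For Tlr9 the Cy3 signal was 561 to 721 units on TIC arrays and 837 to 1214 on blood arrays, a log2 difference of −0.67 at percentile 1.53 of all genes. For Myd88 it was 599 to 737 units on TIC arrays and 247 to 342 on blood arrays, a difference of 1.29 at percentile 80.7. The median over all genes was 0.56. Tlr4, Tlr2, Tlr6, Irak3, Tlr1 and Tlr7 lay between 0.18 and 0.61. The part of these Cy3 differences in the ratios was not tested.

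Markers of several cell types moved with the groups. In TIC against the reference, T-cell markers held 0 higher and 2 lower of 6 (median −0.62) and natural killer markers 1 and 0 of 8 (median 0.19). Conventional dendritic cell markers held 1 and 2 of 6 (median −0.002) and endothelial markers 0 and 1 of 6 (median −0.30). The summed Cy5 signal of T-cell markers was 16048 to 45010 units in TIC and 1170 to 2382 in blood. B-cell markers, of which 9 were tested, held 0 higher and 8 lower in TIC against the reference (median −2.85) and 0 higher and 8 lower in TIC against blood (median −1.93), and their median stayed negative with median and spike-in centring, while in TIC against blood only 2 were lower after median centring. Without arrays 897 and 898 the counts were 0 and 8 again in both comparisons. Their summed Cy5 signal was 1088 to 2930 units in TIC and 3282 to 8026 in blood, so that it was lower in TIC where most genes were brighter. Cd79a, Pax5 and Blk were not well above background on any TIC array, and Pax5 and Blk on none of the blood arrays. Monocyte and macrophage markers held 6 higher and 1 lower of 11 in TIC against the reference (median 1.02). Their summed signal was 93745 to 372240 units in TIC and 18278 to 39135 in blood, with C1qa, C1qc, Mrc1 and Mertk above background on none of the blood arrays. Neutrophil markers, of which 9 were tested, held 0 higher and 4 lower in TIC against the reference (median −0.98), 4 higher and 0 lower in blood against the reference (median 0.93) and 0 higher and 8 lower in TIC against blood (median −2.09). After median centring they held 2 higher and 0 lower in TIC against the reference (median 0.45) and 3 higher and 2 lower in TIC against blood (median 0.01). The medians over all genes were 1.20 and 1.46 on that scale. Their summed signal was 16424 to 116844 units in TIC and 28892 to 87143 in blood, with Cxcr1 well above background on no array and Ngp on no blood array. Plasmacytoid dendritic cell markers held 2 higher and 1 lower of 8 in TIC against the reference (median −0.15) and 3 higher and 1 lower in TIC against blood (median −0.25). They summed to 16596 to 75216 units in TIC, of which Irf8 alone gave 8051 to 32843, and to 980 to 1978 in blood. Siglech was well above background on none of the blood arrays. Hepatoma and hepatocyte markers summed to 118747 to 677252 units in TIC and 143 to 317 in blood, with Alb, Apoa1, Apoa2, Foxa2 and Hnf4a well above background on none of the blood arrays. Fibroblast markers held 2 higher and 0 lower of 10 in TIC against the reference and summed to 74025 to 291967 units in TIC and 1642 to 3261 in blood, with Col3a1, Pdgfra, Pdgfrb, Fap and Lum well above background on none of the blood arrays. With loess, 7 of 9 erythroid and 8 of 8 platelet markers fell in TIC against the reference. The part of these cell types in the values of Tlr9, Tlr1, Tlr7 and Tlr4 was not tested.

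Genes of the surrounding pathway came from lists chosen with earlier results of these data known. Of all genes, loess called 9.31% higher and 10.1% lower in TIC against the reference, and 12.1% and 11.8% in TIC against blood. In blood against the reference these shares were 0.504% and 0.244%. After median centring the median of all genes was 1.20 in TIC against the reference and 1.46 in TIC against blood. Counts of higher genes there carry this shift, and the shares of all genes called are given in the closing section. Of the other mouse receptors Tlr5, Tlr11, Tlr12 and Tlr13, 0 had a named probe. Of 13 genes that help receptors bind or travel, 2 were higher and 1 lower in TIC against the reference (median 0.19). After median centring 10 were higher and 1 lower, with a median of 1.83, against 1.20 over all genes. Lgmn and Ctss, proteases that cleave endosomal receptors, rose by 2.06 ± 0.10 and 2.04 ± 0.10, and Cd36, a co-receptor of TLR2 and TLR6, fell by 3.12 ± 0.19, each with the same sign under median and spike-in centring. In blood, Ly86, the partner of the receptor relative CD180, fell by 1.07 ± 0.08 and Ctss by 1.07 ± 0.10. In TIC against blood 3 were higher and 1 lower, with Ctss at 3.11 ± 0.16, Lgmn at 2.19 ± 0.14, the receptor chaperone gene Hsp90b1 at 1.31 ± 0.10 and Cd36 at −3.32 ± 0.21, or −0.72 after median centring, where 10 were higher and 0 lower.

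Of 22 tested adaptors and proximal kinases, 0 were higher and 1 lower in TIC against the reference. After median centring 16 were higher and 0 lower, with a median of 1.39, against 1.20 over all genes. The gene called with loess was Tab3, a partner of the kinase TAK1, at −2.44 ± 0.12, and at −2.65 ± 0.14 in TIC against blood. After median and spike-in centring it was −0.47 and −1.10 against the reference, and −0.04 and −0.70 against blood. Of 16 tested NF-kB, IRF and MAP kinase genes, 2 were higher and 4 lower in TIC against the reference. After median centring 11 were higher and 0 lower, with a median of 1.82, against 1.20 over all genes. Fos, a subunit of AP-1, rose by 3.25 ± 0.15, and its partner Jun by 1.08 ± 0.07, with the same sign by either centring. Irf7, a factor of interferon induction downstream of TLR7 and TLR9, fell by 1.99 ± 0.19, and was −0.37 after median and −0.997 after spike-in centring. Mapk14 (−1.62 ± 0.06), Map2k3 (−1.51 ± 0.12) and Irf5 (−1.25 ± 0.10) were lower with loess and above 0 after median centring. In TIC against blood, Fos (2.67 ± 0.20) and Irf8 (1.24 ± 0.09) were higher, Jun was higher with no fold given because it was well above background on no blood array, and Irf7 (−2.75 ± 0.20, or −0.46 after median centring), Map2k3 (−2.11 ± 0.14) and Mapk14 (−1.87 ± 0.06) were lower, of which Map2k3 and Mapk14 were above 0 after median centring.

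Of 21 negative regulators, 4 were higher and 2 lower in TIC against the reference. After median centring 18 were higher and 0 lower, with a median of 2.01, against 1.20 over all genes, where most genes called there were not counted by direction. Dusp1, which encodes a MAP kinase phosphatase, rose by 2.68 ± 0.12, Tnfaip3, which encodes the ubiquitin-editing enzyme A20, by 2.43 ± 0.13, Nfkbiz by 1.96 ± 0.13 and Socs1 by 1.38 ± 0.10. These 4 were also higher in TIC than in blood, by 1.33 to 2.40, and kept their sign by either centring. Usp25 (−2.29 ± 0.09) and Tollip (−1.88 ± 0.08) were lower than the reference with loess, Tollip at 0.15 after median centring, and in TIC against blood they were lower with loess and above 0 after median centring. Socs3 (−1.53 ± 0.10) and Atf3 (−1.16 ± 0.10) were lower in TIC than in blood with loess and above 0 by either centring. In blood against the reference, Socs3 (1.37 ± 0.06) and Dusp1 (1.27 ± 0.11) were higher, and stood at 0.70 and 0.62, neither called, after median centring.

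Of 21 tested genes that such signalling induces, 8 were higher and 0 lower in TIC against the reference, with a median of 0.65, against 0.05 over all genes. After median centring 14 were higher and 0 lower, with a median of 1.49, against 1.20 over all genes. The chemokine genes Cxcl10 (3.85 ± 0.19), Ccl4 (3.67 ± 0.11), Ccl2 (2.19 ± 0.05) and Ccl3 (2.10 ± 0.09) led the list. The reference was well above background for Cxcl10 on 9 and for Ccl2 on 8 of the 16 arrays. In TIC against blood 6 were higher and 0 lower, with Ccl4 at 3.58 ± 0.13 and Ccl3 at 2.01 ± 0.11. Cxcl10 and Ccl2, also among the 6, were well above background on no blood array, and no fold is given for them. In blood against the reference, 1 gene was called, Il1b, at 1.34 ± 0.09, and 0 were called after median or spike-in centring, where Il1b was 0.70 and 0.73. All these standard errors are of 8 arrays per group, and each named gene had a limma adjusted p under 0.05.

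The genes whose ratios ran most like those of the 10 genes over the 16 arrays were found by Pearson correlation among 12270 genes. These r also carry the difference between the 2 groups and array-wide shifts that all genes of an array share. Tlr9 ran closest to Epn3 and Olfr571 (r of 0.996 each), Tlr4 to Atp2a2 (0.995) and Maoa (0.991), and Myd88 to Tap2 and Shkbp1 (0.988 each). Tlr1 ran closest to H2-DMb2 (0.9748) and to Cd22 (0.974), a B-cell surface gene of the marker list. Tlr7 ran closest to Crip3 (0.974) and Ifitm6 (0.961). Tlr6 (Sla, 0.887), Irak3 (Lims2, 0.771) and Tlr2 (Mgst1, 0.755) had looser companions. With the group means removed, Tlr1 ran closest to Atpsckmt (0.961) and Bank1 (0.960), Tlr4 to Atp2a2 (0.974), Tlr9 to Epn3 (0.939) and Tlr2 to Clec4e (0.782). Tlr9 and Myd88 themselves correlated at 0.98 over the 16 arrays, at 0.73 within TIC and at 0.77 within blood.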

How the data were processed

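The deposited scanner files, written by Agilent Feature Extraction 10.5.1.1 per the file headers (9.1.3.1 per the submitters' processing notes), give spot and local background intensity in both dyes, as pixel medians. They also hold the program's own log10 ratio of Cy5 over Cy3, made per the file headers after background subtraction, detrending and dye normalisation. The deposited value table of the series equals this ratio, which served, turned to log2, as an alternative. Mean spot intensities, planned as input, were not used, and the medians took their place.

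Background was corrected with normexp (offset 50) and ratios were normalised within arrays by loess in limma 3.58.1 (R 4.3.3). Control spots had weight 0, and 87 to 153 outlier spots per array were left out. Of 41174 probes, 26494 were tested, those well above background in Cy5 on 4 or more of the 8 arrays of a group, or in Cy3 on 8 or more of 16. Names came from RefSeq accessions, and 23374 probes had 1 symbol and 17800 none. A gene was represented by its brightest probe, and 12298 genes were tested. Each group was tested against 0, and the groups against each other, with limma (lmFit, eBayes), adjusted over all tested probes. The test was checked on simulated data. The number of arrays limits the precision. Where a probe was not well above background in a group, "at least" gives the bright mean over the higher of the dim probe and the lowest signal well above background, per array, on single channels after loess and Aquantile, which keeps any dye bias.

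The 10 genes, the lists and the tests were chosen with earlier results of these data known. All probes of the 10 genes are reported; of each pathway list, up to 4 called genes per comparison and direction, largest first, are named; nearest genes are the 2 of highest correlation for each gene, of which part is printed. Alternatives were other background corrections (none, or a floor of 16 units), median or spike-in centring, the deposited ratios, other filters and probe rules, slide as a random block, single slides, single-channel Cy5, a replicate block, leaving out each array and leaving out TIC arrays 897 and 898.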

Additional observations from a re-analysis of the deposited data

Results flagged for a closer look

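Tlr9 had a difference of −2.51 between TIC and blood (log2, limma adjusted p = 1.2e-10). It drew attention because its 8 TIC arrays all lay below the untreated reference and its 8 blood arrays all above it with loess. With median centring 3 of 8 TIC arrays and 4 of 8 blood arrays lay above the reference. Myd88 had a difference of −0.84 (limma adjusted p = 1.1e-08), with all 8 TIC arrays below and all 8 blood arrays above the reference with loess. With median centring all 8 TIC arrays lay above and all 8 blood arrays below it, the opposite arrangement. For neither gene is a share given of all genes with the 2 groups on opposite sides of the reference. By Dixon's test no array stood out for the 10 genes in TIC or for the 8 genes tested in blood, where Tlr3 and Tlr8 were not tested. The test looks for a lone extreme value and can miss neighbouring ones. In TIC, Tlr7 was −0.20 and −0.43 on arrays 897 and 898, against a median of −1.09, so the test cannot decide whether these arrays stand apart.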

How the results depend on the processing

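Of 160 values of 8 genes under the alternatives in TIC against the reference, 137 kept their direction and their side of the thresholds, 9 lost and 8 gained a call, and 6 turned sign. In blood against the reference these numbers were 138, 0, 4 and 10 of 152, and in TIC against blood 210, 2, 25 and 11 of 248. Scaling moved most of them. After median centring in TIC against the reference, Tlr1 was 0.14, Tlr7 0.26, Myd88 1.39 and Irak3 0.80, and after spike-in centring Myd88 was 0.76 and Irak3 0.16. In blood against the reference, median centring gave Tlr2 −0.19, Tlr4 −0.035, Tlr6 −0.19, Tlr9 −0.045 and Myd88 −0.42, and spike-in centring −0.17, −0.0082, −0.16, −0.017 and −0.40 for the same genes. In TIC against blood, Tlr1, Tlr7, Myd88 and Irak3 were 1.41, 1.05, 1.81 and 1.05 after median centring and 0.75, 0.39, 1.15 and 0.39 after spike-in centring. Irak3 was 0.23 in the deposited ratios, and quantile-normalised Cy5 gave Tlr2 −0.059 and Tlr6 −0.0077. The cause of these turns was not tested. Of the 10 genes, 6 were called in TIC against the reference in the deposited ratios, against 3 with loess (46.8% and 19.4% of all genes). Tlr3 (2.34) and Tlr8 (1.23), whose reference was well above background on no array, are among these 6. Median centring called 4 in TIC against the reference, all higher, and spike-in centring 2, both higher (59.0% and 46.8% of all genes). In blood against the reference, median centring called 1 gene, spike-in centring 1 and the deposited ratios 2, against 0 with loess (7.27%, 6.53%, 7.77% and 0.748% of all genes). In TIC against blood, 1 was called with loess (23.9% of all genes), 4 with a floor (39.3%), 7 after median centring (62.7%), 4 after spike-in centring (55.0%), 6 in the deposited ratios (57.0%), 3 on slides 1 and 3 (26.1%), 3 with Cy5 after Aquantile (33.2%), 2 with Cy5 after quantile normalisation (37.0%) and 3 without TIC arrays 897 and 898 (27.5%). Leaving out each array in turn gave 2 to 4 calls in TIC against the reference, 0 to 0 in blood and 1 to 2 in TIC against blood. The second call there was Tlr4, at 1.004 to 1.098 without blood array 889, 890, 896 or 897 or TIC array 897 or 898. The fit with the replicate block called 1 gene in TIC against blood and 23.9% of all genes, and it changed no call of the 10. Deviations of same-numbered samples correlated at −0.17 to 0.20, and 5 of 8 blood samples correlated best with their own number, a hint of pairing from the data and not from the design, which does not say what the numbers share. Signal over background limits Tlr3 and Tlr8 in every comparison and Tlr4 and Irak3 in blood. This holds also where the deposited ratios called Tlr3 and Tlr8, in TIC against the reference and in TIC against blood.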
